A study of Mus musculus with 12 samples.

Results

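The DIV1 Zic1/2 regions are the 34199 places in the mouse genome where a peak was called in all 3 CUT&RUN libraries taken on the first day of culture, out of 114254 regions (29.9%) formed by merging the 3 peak lists. Peaks sharing 1 bp or more on chromosomes 1 to 19 and X were joined, and a library held a region if any of its peaks touched it. Merging the lists of all 12 libraries of the study gave 282545 regions. The same rule kept 29043 regions at DIV3, 24488 at DIV5 and 17674 at DIV7. No signal value was used to choose the regions, only the presence of a peak.

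The cells were mouse cerebellar granule neurons grown in Neurobasal with 2% calf serum and B27, and sampled after 1, 3, 5 or 7 days in vitro (DIV), with 3 libraries a day that the design text calls biological replicates. Strain, genotype, age of the animals and how cultures map to animals are not stated in the labels, so the spread between libraries may be partly technical. Cytosine arabinoside, a nucleoside analog that stops DNA synthesis and kills cycling cells, went into the medium on day 2 at 1 uM. The DIV1 libraries therefore precede it and the libraries of DIV3, DIV5 and DIV7 follow it, so the drug and the time in culture cannot be told apart.

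The zinc finger factors Zic1 and Zic2 belong to the granule neuron lineage and are present both in the dividing progenitors of the external granule layer and in the neurons they become. Progenitors divide under Sonic hedgehog, leave the cell cycle, migrate inward and form synapses, and cultured granule neurons pass through the later part of this course in the dish. In CUT&RUN an antibody, here raised to the Zic1/2 C terminus, tethers a nuclease that releases the DNA beside the bound protein. The antibody does not separate Zic1 from Zic2. The libraries come from bulk cells, so fewer cells with a bound site and weaker binding per cell cannot be told apart.

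The 5 promoters printed here are kinds of place that the results turn on, and each is given from RefSeq on GRCm38.p6 as the 300 bases from 250 before to 50 after a gene start, 5′ to 3′ on the gene's strand. Zic5 lies at chr14:122465609-122465908 on the minus strand and is shown because its region was the strongest of those at the Zic gene pairs. Cdkn2d, which codes for an inhibitor of the kinases CDK4 and CDK6, lies at chr9:21291160-21291459 on the minus strand and is shown as the strongest promoter region of any listed gene. Cxcr4, the receptor for the chemokine Cxcl12 that holds progenitors at the surface of the cerebellum, lies at chr1:128592250-128592549 on the minus strand and had a peak in 3 of 3 DIV1 and 4 of 9 later libraries. The second listed start of Syn2, which codes for the synaptic vesicle protein synapsin II, lies at chr6:115238744-115239043 on the plus strand in the region that differed most clearly between DIV1 and the later days. Gabra6, a GABA-A receptor subunit that marks mature granule neurons, lies at chr11:42321023-42321322 on the minus strand and had a peak in 0 of 3 DIV1 and 8 of 9 later libraries. Capitals mark the first match to a Zic core (CAGCAGG or its reverse CCTGCTG) where there is one, and otherwise to the short NFI site (TTGGCA or its reverse TGCCAA).
Zic5 promoter: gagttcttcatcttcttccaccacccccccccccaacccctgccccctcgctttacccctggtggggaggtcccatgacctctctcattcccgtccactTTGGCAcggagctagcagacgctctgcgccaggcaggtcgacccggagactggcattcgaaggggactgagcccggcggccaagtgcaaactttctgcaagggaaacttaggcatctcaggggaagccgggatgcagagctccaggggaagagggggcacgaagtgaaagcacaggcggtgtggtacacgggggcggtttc
Cdkn2d promoter: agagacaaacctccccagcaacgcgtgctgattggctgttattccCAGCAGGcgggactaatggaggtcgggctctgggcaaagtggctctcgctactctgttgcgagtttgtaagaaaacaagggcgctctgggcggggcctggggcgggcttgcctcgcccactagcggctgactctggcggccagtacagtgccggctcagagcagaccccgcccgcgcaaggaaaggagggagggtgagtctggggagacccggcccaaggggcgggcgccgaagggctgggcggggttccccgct
Cxcr4 promoter: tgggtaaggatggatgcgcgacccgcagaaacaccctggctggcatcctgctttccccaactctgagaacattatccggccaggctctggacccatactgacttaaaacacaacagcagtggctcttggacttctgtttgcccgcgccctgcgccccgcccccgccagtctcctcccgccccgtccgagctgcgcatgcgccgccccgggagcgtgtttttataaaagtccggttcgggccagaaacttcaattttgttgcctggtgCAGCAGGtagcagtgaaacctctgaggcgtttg
Syn2 second promoter: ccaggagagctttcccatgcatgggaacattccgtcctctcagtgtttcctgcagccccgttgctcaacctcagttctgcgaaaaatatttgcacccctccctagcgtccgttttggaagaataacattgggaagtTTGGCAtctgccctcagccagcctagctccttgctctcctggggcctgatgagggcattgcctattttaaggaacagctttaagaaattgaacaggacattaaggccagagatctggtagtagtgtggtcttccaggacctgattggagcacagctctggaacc
Gabra6 promoter: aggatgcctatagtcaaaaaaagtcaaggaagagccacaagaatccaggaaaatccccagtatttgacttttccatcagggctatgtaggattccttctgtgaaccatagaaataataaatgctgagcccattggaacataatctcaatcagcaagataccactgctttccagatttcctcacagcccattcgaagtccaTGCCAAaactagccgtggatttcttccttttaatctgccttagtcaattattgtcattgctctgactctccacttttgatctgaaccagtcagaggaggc

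The Zic core stood at base 46 of the Cdkn2d promoter and at base 268 of the Cxcr4 promoter, counted from the 5′ end of the printed sequence. The short NFI site stood at base 100 of Zic5, base 137 of Syn2 and base 201 of Gabra6. Such short words are common: of 21045 promoters of protein-coding genes, 10.6% held the Zic core on either strand, 13.1% the short NFI site and 15.7% the E-box CAGCTG, the word read by proneural factors, and none of these words contains another. A DIV1 region overlapped 10966 of these promoters (52.1%), and 1072 of the 10966 (9.78%) held the Zic core against 1159 of the other 10079 (11.5%). Promoters with a DIV1 region were richer in G and C, with a median of 62.7% against 49.3%. Under 50% GC the Zic core stood in 6.72% of 729 promoters with a region and 7.34% of 5298 without one. Between 50 and 60% GC it stood in 10.0% of 3271 and 16.1% of 3423, between 60 and 70% in 10.2% of 4549 and 17.1% of 1085, and from 70% in 9.56% of 2417 and 12.5% of 273. The maximum-signal part of the peak lay in the promoter in all 3 DIV1 libraries at 2758 promoters, and 10.7% of these held the Zic core. A word in a promoter is a description of that window and does not mark a bound site.

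The 3 DIV1 lists held 65633, 83524 and 67759 peaks on these chromosomes, with 3.26, 2.88 and 2.699 M reads in peaks, against 0.979 to 3.07 M in the 9 later libraries. The deposited total of a peak is its summed coverage, and the totals were whole multiples of 51 in all DIV1 libraries and in 1 library of each later day, and of 50 in the other 6, so total divided by that number was read as the reads in the peak. The unit of 50 or 51 is called the read length below, and was inferred from these totals. The maximum signal is the highest coverage in a peak, is not scaled to depth and never passed 102. It is therefore given as a percentile among all peaks of the same library, where 50 is a median peak. The 34199 regions held 57.8, 48.6 and 58.7% of the peaks of the DIV1 replicates 1, 2 and 3, but 83.9, 78.1 and 83.7% of their reads in peaks. The median region was 970 bp wide (interquartile range 699 to 1364), with 58, 46 and 45 reads in the 3 libraries. Regions called in 2 of the 3 lists (17789) had a median of 477 bp and 17.5 reads, and regions called in 1 list (62266) of 292 bp and 13 reads. The reads per region in pairs of DIV1 libraries had Spearman correlations of 0.832 to 0.855 across the 34199 regions, which share the rule that chose them. Between 9 and 20 peaks per pair had the same start and end, so no list repeats another.

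Gene ends held more of these regions than of the regions seen in fewer DIV1 lists. Of the 34199 regions, 11390 (33.3%, 95% Wilson interval 32.8 to 33.8, counting error only) lay within 1 kb of either end of a protein-coding gene, 12871 (37.6%) lay inside a gene beyond that, and 9938 (29.1%) lay between genes. Among regions called in 2 of 3 lists the gene-end share was 11.3%, and in 1 of 3 lists 8.46%. Regions at gene ends were also broader and stronger, with a median width of 1233 bp and median percentiles of 81.8, 83.4 and 83.9 in the 3 libraries, against 893 bp and 69.9, 68.0 and 61.3 inside genes. Width moved with the class, since 16.8% of regions up to 800 bp lay at a gene end and 58.8% of those over 2000 bp. Gene ends here were mostly starts: of 15243 genes longer than 2 kb with a listed promoter, 8760 (57.5%) had a region within 1 kb of the start and 1274 (8.36%) within 1 kb of the other end.

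**Figure D1:**
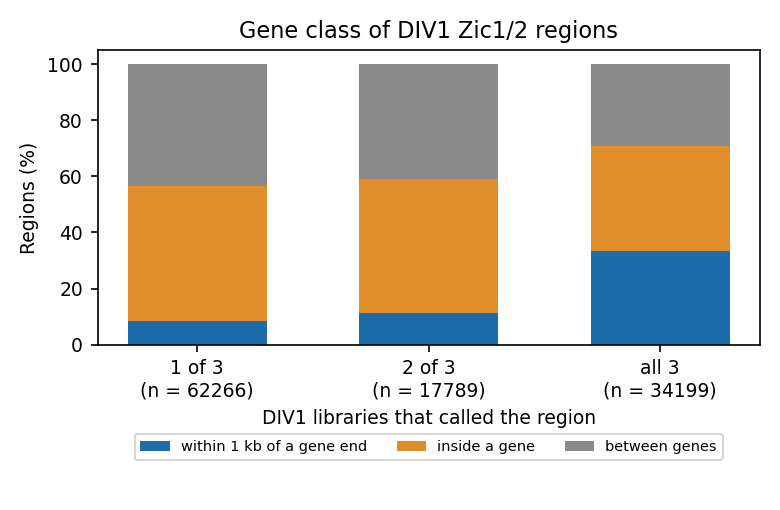
Share of regions (%) within 1 kb of a gene end, inside a gene and between genes, for regions called in 1, 2 or all 3 DIV1 lists. The gene-end share was 8.46% and 11.3% in the first 2 bars and 33.3% in the regions called in all 3.

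The regions reached 13427 of 21631 protein-coding genes (62.1%), counting the gene span and 1 kb on each side. Most of these genes held few, with exactly 1 region inside the span of 8734 genes and at least 10 in 255 genes (1.18%). Longer genes were reached more often, with shares of 34.2, 60.7, 70.7 and 82.7% over 4 equal classes of genes from the shortest to the longest, while the mean density ran from 14.3 down to 1.68 regions per 100 kb. The 255 genes with at least 10 regions had a median span of 233 kb against 17.3 kb for all genes. Genes on the X chromosome were reached less often, 319 of 966 (33.0%) against 63.4% on the autosomes. Neighbouring regions lay a median of 20.7 kb apart, and 35.3% of the gaps were within 10 kb.

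Gse1, a coiled-coil protein gene, held the most regions, 77 in its span on chromosome 8, or 21.8 per 100 kb, and they covered 40.4% of the span. Its strongest region (chr8:120381677-120384381) had 404, 328 and 383 reads in the DIV1 replicates 1, 2 and 3, at percentiles 98.7, 99.6 and 99.7. Of the 77, between 34 and 64 had a peak in any one later library. Rbfox3, which codes for the neuronal splicing factor NeuN, held 44 regions, and its strongest (chr11:118757123-118761411) had 473, 396 and 430 reads. Nfix, a nuclear factor I gene used in granule neuron maturation, packed 34 regions into its span, 35.2 per 100 kb, covering 50.6% of it. The strongest Nfix region (chr8:84793187-84795422) had 286, 238 and 254 reads at percentiles 96.0, 97.2 and 98.8. The strongest region of each gene was picked by its mean percentile over the DIV1 libraries, so high values there follow from the choice.

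The other genes with most regions were Nav2, a microtubule-binding protein of growing neurites, with 42, Auts2, a regulator of brain development, with 36, Camta1, a calmodulin-binding transcription activator, with 33, and Man1c1, a Golgi mannosidase, Zmiz1, a transcriptional coactivator, and Hivep3, a large zinc finger protein, with 30 each. Their densities ran from 3.26 per 100 kb in Auts2 to 21.04 in Man1c1. In these 6 genes between 8 and 34 of the regions had a peak in a given later library, and the mean number was lower at DIV7 than at DIV3 in each. Sfi1, which codes for a centrin-binding protein of the centrosome, stood apart with 38 regions at 53.1 per 100 kb that covered 69.7% of its span, and 37 of the 38 had a peak in all 9 later libraries. Its span held 53, 52 and 58 peaks at DIV1 and 80 in DIV7 replicate 1, the library with fewest reads in peaks. Gse1 held 161, 161 and 146 peaks at DIV1 and 68 in that library. No list of artefact-prone loci was applied, and the source of the Sfi1 counts was not tested. Gse1 had the most regions under each of the 6 other ways of calling the set that were tried, while Sfi1 moved to place 84 and Man1c1 to place 45 when only the maximum-signal parts of peaks were merged.

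**Figure D2:**
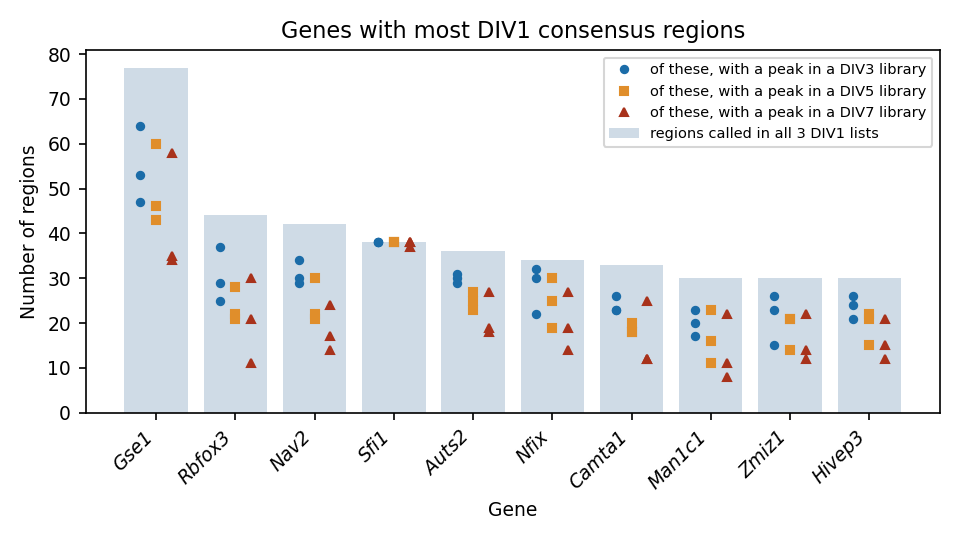
Number of DIV1 regions in the span of the 10 genes with most (bars), and how many of these had a peak in each later library (points, 1 per library, by day). Points fall below the bar for every gene but Sfi1, whose 38 regions had a peak in 37 or 38 cases in each later library.

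The highest signal percentiles were found away from genes and in every library. Of the 10 regions with the highest mean percentile, 9 lay between genes, and each had a peak in all 9 later libraries. The first (chr9:3000001-3038419) was 38419 bp wide, lay 296812 bp from its nearest gene Alkbh8 and had 30698, 35857 and 31235 reads at DIV1 and 32508 to 43352 later. On chromosome 2, 4 of the 10 stood close together, the nearest 1030541 bp from Lrrc4c, a synaptic adhesion gene. The only one inside a gene (chr6:103649041-103649307, in the cell adhesion gene Chl1) had 330, 331 and 329 reads at DIV1 and 324 to 352 later. Their maximum signal was at or near the ceiling of 102, so these values do not rank the regions against each other. All 60 regions at or above percentile 99.9 had a peak in the 9 later libraries, and 37 of the 60 lay between genes and 4 at gene ends. Outside the deposited calls, no list of artefact-prone loci was applied.

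Among gene-end regions the highest percentiles were at Mid1 (chrX:169988390-170010312), a microtubule-associated ubiquitin ligase gene, with 3916, 5082 and 5239 reads, Lars2, the mitochondrial leucyl-tRNA synthetase gene, with 295, 272 and 308, Gm15319, Gm21119, and Sspn, which codes for a muscle membrane protein. Inside genes they were at Chl1, Tmem267, Filip1l, Zc3h7a and 2210408I21Rik. All of these had a peak in the 9 later libraries as well. Once the maximum-signal part was required to lie in a promoter in all 3 DIV1 libraries, a choice made after these values were seen, the strongest were the shared promoter of AU040320 and Ncdn, a neuronal protein gene (chr4:126751569-126754710), with 388, 336 and 330 reads, that of B3galt6 and Sdf4 with 260, 154 and 232, and that of Ccnk, the cyclin K gene, with 242, 188 and 220. Their percentiles were 99.6 or more in each DIV1 library. At the Cdkn2d promoter printed above the region (chr9:21290364-21291900) had 262, 239 and 232 reads at DIV1, at percentiles 99.7, 99.6 and 99.5, and 110 to 263 reads (median 178) in the 9 later libraries, so the groups overlapped.

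Regions were found at both pairs of Zic genes that lie back to back, Zic1 with Zic4 on chromosome 9 and Zic2 with Zic5 on chromosome 14. Zic5 (chr14:122464394-122466290) had 218, 176 and 190 reads at percentiles 97.2, 98.1 and 97.2, and Zic2 (chr14:122473305-122475574) had 201, 168 and 187 reads at 86.1, 98.7 and 95.9. Zic4, with the most regions at 6, had 52, 46 and 65 in its strongest. Zic1, itself a target of the antibody, was the lowest of these 4, with 45, 14 and 11 reads at percentiles 69.9, 54.9 and 47.5. Zic5 stood above Zic1 in each of the 3 libraries, while Zic4 ranged from 36.8 to 86.1, below Zic5 in each library.

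Most genes of the granule lineage and of Hedgehog signalling were reached, but so were most genes of similar span. A region was found at 35 of 37 lineage transcription factors and 22 of 25 Hedgehog genes, beside 62.1% of all genes. The median gene of these lists spans 90.4 and 45.6 kb, and genes from 44.9 kb up were reached in 82.7% of cases. Gli2, the main activator of Hedgehog targets, held 17 regions, and its strongest (chr1:118863445-118865414) had 223, 196 and 189 reads at DIV1 but no peak in 2 of the 9 later libraries and 12 to 142 reads in the other 7. Each DIV1 library thus lay above each later library in reads, which are not scaled to depth, but the percentiles overlapped, at 94.4 to 99.1 at DIV1 and 25.7 to 95.1 later. Ptch1, the Hedgehog receptor, and Boc, a co-receptor, held 9 regions each in the span or within 1 kb, and Sufu, which restrains the Gli proteins, 10. Shh, Evc2 and Disp1 held none.

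Atoh1, the proneural factor of granule progenitors, had its strongest region at the gene end (chr6:64728565-64730279) with 92, 81 and 70 reads, and 10 to 29 reads in the 6 later libraries that had a peak there. These reads are not scaled to depth, and the mean percentile of the region at DIV1 was 61.8, below the 71.4 of the median DIV1 region. Neurod1, which acts after cell cycle exit, had 74, 51 and 47 reads at DIV1 and 11 to 98 in 8 later libraries, so it overlapped. Barhl1, a homeodomain factor of granule cells, had 279, 209 and 226 reads, and 31 to 196 in 8 later libraries, while its percentiles overlapped, at 83.4 to 91.5 and 25.7 to 90.4. Pax6, a paired-box factor of the rhombic lip, differed between the DIV1 libraries, with percentiles of 69.9, 98.1 and 88.2. Nfia held 28 regions, Myt1l, a neuronal zinc finger factor, 22 and Cux2 12. Of the lineage factors, Neurog1 and Meis2 held none.

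Cell cycle genes were reached in 44 of 45 cases, with a median of 1 region and a median span of 13.9 kb. Of all genes 62.1% were reached, and of those of 5.84 to 17.3 kb 60.7%. E2f1, a factor for entry into S phase, had 268, 179 and 213 reads at DIV1 (chr2:154568183-154570787) and 33 to 165 later, so DIV1 lay above the later libraries in reads, but in percentiles it overlapped them, at 94.02 to 94.4 against 65.6 to 94.9. Cdk6, which drives the G1 phase, had 259, 239 and 171 reads, and the later libraries had 17 to 180, so in reads DIV1 replicate 3 overlapped them, and in percentiles DIV1 replicate 1 did too (86.1 against 40.2 to 89.2). Ccnd2, the D-type cyclin of granule progenitors, had 76, 64 and 55 reads (chr6:127130167-127131441), and a peak in 5 of 9 later libraries, with none at DIV7. Cdt1, which licenses replication origins, held 3 regions. The missing gene was Ccnb2.

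Genes of axon guidance (47 of 48) and neuronal migration (31 of 32) were reached about as fully, on spans with medians of 147 and 52.2 kb. Of all genes 62.1% were reached, and of those from 44.9 kb up 82.7%. The densities of the 2 lists were 1.90 and 2.32 regions per 100 kb, against 2.45 for all genes. Ephb2, an ephrin receptor, held 19 regions, the strongest (chr4:136697172-136700014) with 331, 283 and 257 reads at percentiles 99.3, 99.7 and 98.8. Slit1 and Slit3, repulsive ligands, held 17 each, and Plxna4, a semaphorin receptor, 15. Among migration genes Dab1, the adaptor of Reelin signalling, held 16, Reln, its ligand, and Dclk1, a microtubule-binding kinase, 11 each, and Ntrk2, the BDNF receptor, 10. Dcx, on X, held none. Cxcr4 (chr1:128591823-128593479) held 1 region with 83, 87 and 70 reads at DIV1, and 6 later libraries had a peak in it.

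Synaptic and channel genes were reached in 24 of 25 cases for glutamate receptors, 32 of 34 for the presynaptic release machinery and 40 of 42 for ion channels. These lists hold long genes, with median spans of 319, 62.4 and 191 kb, and genes from 44.9 kb up were reached in 82.7% of cases. Their densities were 1.02, 1.76 and 1.85 regions per 100 kb, against 2.45 for all genes and 1.68 for genes from 44.9 kb up. Grid1, a delta glutamate receptor, held 14 regions, Grik3 and Grik4, kainate receptor subunits, 13 each and Grm4, a metabotropic receptor of granule cell terminals, 7. Syn3, a synapsin, held 14, Nrxn2 and Nrxn3, presynaptic adhesion molecules, 13 and 9, and Bsn, a scaffold of the active zone, 11. Cacna1c, the pore of an L-type calcium channel, held 28, Kcnd3, an A-type potassium channel, 19, Cacna2d3 17 and Cacna1a, the P/Q-type pore, 16. Of 13 GABA-A receptor subunit genes 7 (53.8%) were reached, beside 62.1% of all protein-coding genes, at a median span of 137 kb. No more than 3 regions lay at any of them (Gabrb1), and Gabra3, Gabra6, Gabrb2 and Gabrg1 were among those that held none.

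Notch (28 of 28), Wnt (33 of 34) and BMP and Id genes (23 of 24) were reached, beside 62.1% of all genes. Their median spans were 22.9, 43.7 and 34.0 kb, and genes of 17.3 to 44.9 kb were reached in 70.7% of cases. The lists were led by Maml3, a Notch coactivator, with 14 regions, Axin2, a brake on Wnt signalling, with 6, and Ski and Smad6, inhibitors of BMP and TGF-beta signalling, with 5 each. Id2, which holds back proneural factors, had 221, 222 and 167 reads at its promoter region (chr12:25094849-25097151), and Hes6, a Notch-linked repressor of the Hes family, 298, 257 and 259. Both had a peak in all 9 later libraries, with 93 to 280 and 85 to 256 reads, so DIV1 overlapped the later days at Id2. At Hes6 the closest libraries were 1 read apart, and the percentiles overlapped, at 98.7, 95.9 and 95.9 at DIV1 and 87.99 to 96.9 later. Chromatin regulators were reached in 48 of 48 cases, with 29 regions at Arid1b, a BAF complex subunit, and 11 at Chd7, a remodeller that granule progenitors need. Their median span was 52.5 kb, and genes from 44.9 kb up were reached in 82.7% of cases. Ribosomal protein genes were reached in 71 of 75 cases although their median span was 3.18 kb, and none held more than 2 regions.

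Among the lists of genes for other cells, microglia markers and liver and muscle genes gave the lowest shares. Microglia markers were reached in 2 of 12 cases, with Cx3cr1, Csf1r, Aif1 and P2ry12 among those with no region, and liver and muscle genes in 7 of 25. Their median spans were 6.37 and 10.5 kb, and genes of 5.84 to 17.3 kb were reached in 60.7% overall. Purkinje cell markers stood at 9 of 15 (60%), glia markers at 12 of 19 (63.2%) and interneuron markers at 9 of 12 (75%), beside 62.1% of all genes. A Zic1/2 region is not a measure of expression, and no RNA was measured in these libraries, so the identity of the cells was not checked by their transcripts. When only the maximum-signal parts of peaks were merged, the set reached 5116 genes in all, with 31 of 48 axon guidance genes, 22 of 45 cell cycle genes, 18 of 37 lineage factors, 11 of 25 Hedgehog genes, 21 of 75 ribosomal protein genes and 0 of 12 microglia markers. The lists were drawn up with earlier results of these libraries known, and the shares are given as descriptions with no test.

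**Figure D3:**
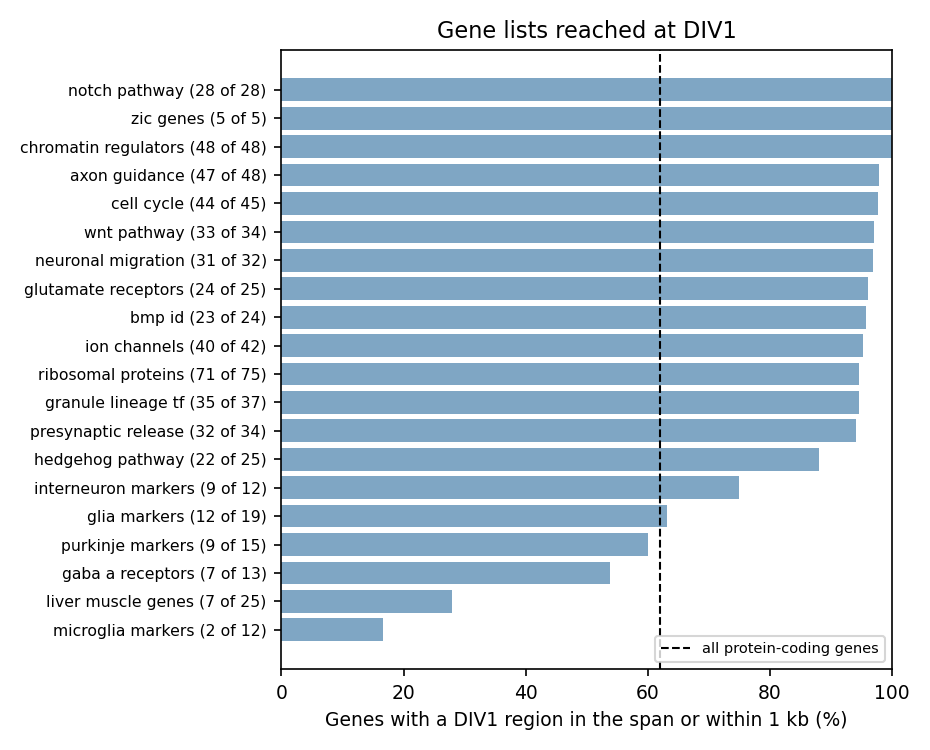
Share of the genes of each list (%) with a DIV1 region in the span or within 1 kb, with the numbers of genes in brackets; the dashed line is the 62.1% of all protein-coding genes. The lists from Notch down to Hedgehog lie between 88 and 100%, GABA-A receptors at 53.8% and microglia markers at 16.7%. The line takes no account of gene span: of genes from 44.9 kb up, 82.7% were reached.

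Gabra6 stood out on its own count. Its span held 0 peaks in each of the 3 DIV1 lists, and 2, 2 and 3 peaks at DIV3, 3, 3 and 1 at DIV5 and 2, 2 and 1 at DIV7. At the promoter printed above, reads in the peak were 55, 55 and 35 at DIV3, 47 and 44 in the first 2 DIV5 libraries and 10, 27 and 11 at DIV7. A complete absence at DIV1 with a peak in every later list was found at 7 of 21631 genes, the others being Col8a1, Cd44, Ehf, Cnbd1, Pik3c2g and Il1rapl2, and 5514 genes had no peak in any DIV1 list. The reverse, a peak in every DIV1 list and none later, was found at 21 genes, among them Cck, which codes for the peptide cholecystokinin, and Prdm13, a factor of inhibitory neuron progenitors. These genes were chosen after their values were seen, and no test was made. The DIV1 libraries had more reads in peaks than most later ones, and the part of depth in either count was not tested.

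Most DIV1 regions still had a peak on later days, and the share was lower on each later day. A peak was found in 87.9, 77.2 and 80.6% of the 34199 regions in the DIV3 libraries, 79.5, 72.7 and 65.3% at DIV5 and 53.0, 76.0 and 57.1% at DIV7. The means were 81.9 ± 5.50%, 72.5 ± 7.12% and 62.0 ± 12.3% (SD, n = 3), and the days overlapped, since DIV7 replicate 2 lay above 2 of the DIV5 libraries. Within each day the library with most reads in peaks had the highest share and the one with fewest the lowest, from 3.07 M reads and 87.9% in DIV3 replicate 1 to 0.979 M and 53.0% in DIV7 replicate 1. The part of depth in the order of the days was not tested. Gene-end regions were found again most often, in 90.1, 88.1 and 83.1% of cases at DIV3, DIV5 and DIV7, against 77.3, 64.0 and 51.5% inside genes and 78.4, 65.6 and 51.4% between genes.

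**Figure D4:**
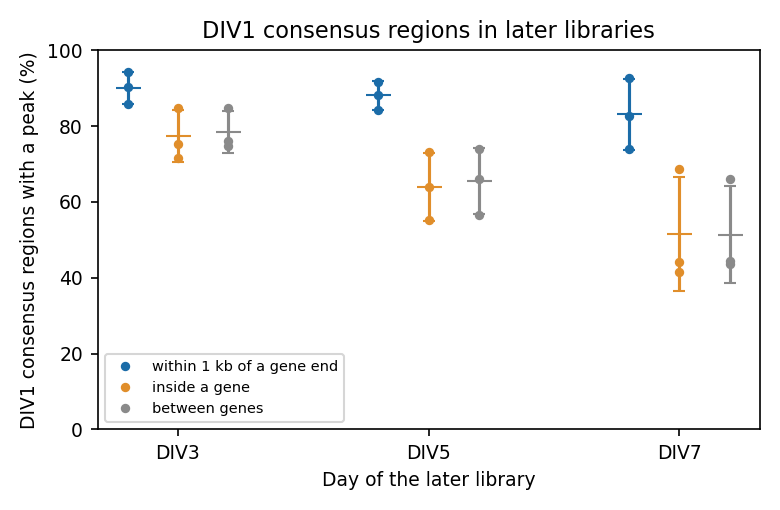
Share of the DIV1 regions of each gene class (%) with a peak in the later libraries, by day; points are libraries, the long dash is the mean and the bar is 1 SD (n = 3). At DIV7 the mean was 83.1% for gene-end regions, 51.5% inside genes and 51.4% between genes.

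All 9 later libraries had a peak in 12313 of the regions (36.0%), of which 57.3% lay at gene ends, with a median of 97.3 reads at DIV1. None of the 9 had a peak in 891 regions (2.61%), of which 9.99% lay at gene ends, with a median of 20.7 reads. The regions absent from every later library were thus weaker at DIV1. The 5 strongest of them lay nearest to Uaca (chr9:60971967-60973063, 91536 bp away) with 79, 72 and 46 reads, in Pebp4 with 32, 57 and 46, in Iqca with 44, 29 and 25, nearest to Lhx1, a LIM homeodomain factor of Purkinje cells and other hindbrain neurons (chr11:84597429-84598661, 71895 bp away), with 114, 74 and 76, and at the end of Them5 with 93, 68 and 43. Their mean percentiles were 79.1 to 89.3.

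The gene classes of all peaks in a list also differed between DIV1 and the later days. Peaks inside genes made up 43.4, 43.0 and 43.2% of the DIV1 lists and 35.7 to 43.1% (median 39.1) of the 9 later lists. DIV3 replicate 1, the deepest of the later libraries with 3.07 M reads in peaks, was the only one to reach the DIV1 range. The 3 later libraries with fewest reads (0.979, 1.53 and 1.65 M) had the lowest shares, 35.7, 36.3 and 36.9%. The DIV1 lists had 2.699 to 3.26 M, and the part of depth in the class shares was not tested. The means were 43.2 ± 0.180% (SD, n = 3) and 39.0 ± 2.47% (n = 9), a difference of 4.20 percentage points (exact two-sided permutation test over 220 assignments, p = 0.0227, 0.0341 with Benjamini-Hochberg adjustment over 3 classes). Peaks between genes made up 34.8 ± 1.66% and 39.999 ± 2.53%, a difference of -5.20 points (exact p = 0.00909, adjusted 0.0273). Gene-end peaks differed by 1.01 points (22.03 ± 1.503% and 21.02 ± 1.21%, exact p = 0.245). Within the 51-base libraries, where 3 against 3 cannot pass, the first 2 differences were 4.397 and -5.38 points (adjusted exact p = 0.3 for both). The read length does not vary in that comparison. Over all 12 libraries it overlaps in part with the day, since no DIV1 library has 50-base reads. Without the 3 later libraries with fewest reads the adjusted exact p was 0.0714 for both, and with any DIV1 library left out it was 0.0545 to 0.109. With a DIV1 library left out, 55 assignments remain and the smallest possible exact p is 0.0182 before adjustment. The between-gene difference had that smallest value without DIV1 replicate 2.

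At 12241 regions called in all 12 libraries the maximum signal could be compared between DIV1 and the later days by rank. The ranks within each library were turned into normal scores and fitted with limma, with DIV1 set against the mean of DIV3, DIV5 and DIV7. With Benjamini-Hochberg adjustment 214 regions (1.75%) passed at 0.05, of which 92 (0.752%) were higher at DIV1 and the others (0.997%) lower, beside 1874 with an unadjusted p under 0.05. Few of them lay at gene ends: 25% of the higher and 12.3% of the lower regions, against 58.6% of all 12241. The count rested on a small base. With a term for read length it was 2, and it was 78 with the reads in peaks as a covariate and 116 within the 51-base libraries, and 30, 47 and 22 without the DIV1 replicates 1, 2 and 3. On the total signal in place of the maximum 635 passed, 346 higher and 289 lower.

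The clearest gain of rank at DIV1 was in Ntn1, which codes for the axon guidance cue netrin-1. This region inside the gene (chr11:68232753-68234464) had percentiles of 98.7, 98.1 and 98.2 at DIV1 and 5.94 to 80.8 (median 63.1) later, so the groups did not overlap. Its reads were 229, 143 and 155 against 14 to 82 (median 35). The difference was 2.62 ± 0.389 score units (SE, limma, adjusted p = 0.00559), it passed with any 1 library left out (highest adjusted p = 0.0450), and it passed with a term for read length (adjusted p = 0.000947). Pde2a, which codes for a phosphodiesterase of cAMP and cGMP, had percentiles of 99.5, 99.6 and 99.5 against 40.2 to 96.7 (median 82.7). The difference was 2.15 ± 0.310 (limma, adjusted p = 0.00559), and Pde2a also passed with any 1 library left out. It did not pass with a term for read length (limma, adjusted p = 0.0829). Within the 51-base libraries, with 1 library per later day, its coefficient was 2.02. Others named by size were in or nearest to Man1c1, 4932438H23Rik, Fam53b, Acot11, Mrgpre, Bcl7a and Mfap4, with coefficients of 2.02 to 2.38, and each lost its call without at least 1 of the libraries.

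Syn2 held the clearest opposite case. The region at its second start (chr6:115237627-115239785) had percentiles of 61.4, 68.0 and 61.3 at DIV1 and 96.2 to 99.5 (median 98.6) later, with no overlap. Reads were 48, 44 and 19 at DIV1 and 48 to 148 (median 105) later, although the DIV1 libraries had more reads in peaks than most. The difference was -2.79 ± 0.261 score units (SE, limma, adjusted p = 0.000147). It passed with any 1 library left out (highest adjusted p = 0.00427) and with a term for read length (adjusted p = 0.00359), and at the second promoter itself 2 of 3 DIV1 and 9 of 9 later libraries had a peak.

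The other 4 regions lower at DIV1 passed with any 1 library left out. Cdh15, which codes for M-cadherin, had percentiles of 76.5, 68.0 and 61.3 against 93.2 to 99.5 (median 98.1; -2.45 ± 0.323, limma, adjusted p = 0.00352). A region 145626 bp from Astn2, which codes for a protein of neuron and glia contact during migration, had 61.4, 36.8 and 29.2 against 82.7 to 99.5 (median 99.01; -3.24 ± 0.411, limma, adjusted p = 0.00352). The last 2 lay 239013 bp from Pdha2 and 144887 bp from Oxsm. In none of the 4 did the groups overlap, and none of the 4 passed with a term for read length. Within the 51-base libraries, with 1 library per later day, their coefficients kept the sign, at -2.61 to -2.01. Regions in or nearest to Cst8, Dhrs2, Dclk1, Gm21149 and Elovl5 lost the call without at least 1 library.

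**Figure D5:**
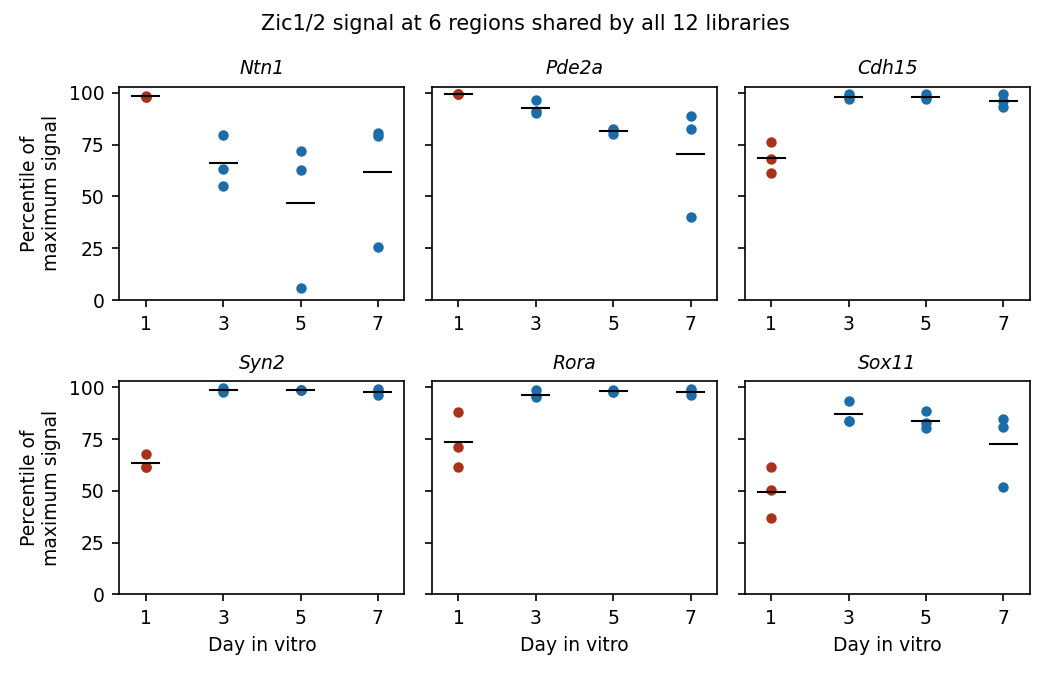
Percentile of the maximum signal among all peaks of a library (vertical axis) by day in vitro, at 6 regions with a peak in all 12 libraries; points are libraries, red at DIV1, and the dash is the mean of the day. Ntn1 and Pde2a are highest at DIV1, Cdh15, Syn2 and Rora lowest without overlap, and the DIV1 and DIV7 points of Sox11 overlap.

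In the gene lists calls were few, and each count stands beside the 1.75% of all regions tested that passed. Of 54 regions at lineage factors 2 passed, both lower at DIV1: in Rora, a nuclear receptor better known from Purkinje cells, with percentiles of 61.4, 88.1 and 71.1 against 95.1 to 99.3 (median 98.0; -2.05 ± 0.311, limma, adjusted p = 0.00664), and in Sox11, a factor of newborn neurons, with 50.5, 36.8 and 61.3 against 51.7 to 93.4 (median 83.5; -1.43 ± 0.325, limma, adjusted p = 0.0366). Of 60 axon guidance regions 3 passed, all higher at DIV1, 1 in Ntn1 and 2 in Ephb2. The first Ephb2 region (chr4:136781526-136784287) had 89.6, 98.7 and 94.0 against 25.7 to 78.9 (median 71.1; 1.96 ± 0.328, limma, adjusted p = 0.00976). Stmn2 and Dclk1, which code for microtubule proteins of growing neurites, had lower regions, as did Syn2 and Cacna1g, a T-type calcium channel gene, while Grm4 and Bcl7a, a BAF subunit gene, had higher ones. None of 3 Zic, 19 Hedgehog, 30 cell cycle, 27 Notch, 18 BMP and Id, 24 Wnt or 45 ribosomal protein regions passed. The medians of their coefficients ran from 0.00902 (Notch) to 0.337 (Zic) beside 0.0275 for all regions. With so few regions per list, the absence of a call does not show an unchanged signal. In simulated data 48% of changes of 1.5 score units and 94% of changes of 3 score units were recovered.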

How the data were processed

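Zic1/2 CUT&RUN was deposited as 1 peak list for each of 12 libraries, 3 per day. The submitters' processing notes name mm10 and, without a role or order, SEACR 1.3, MACS2 2.1, STAR 2.7.2b and other tools. The sources used here do not give the control, the threshold or the handling of duplicates. The deposited signal values, total and maximum coverage per peak, are the authors' and unscaled. Peaks on chromosomes 1 to 19 and X were merged (overlap of at least 1 bp). Gene spans and promoters came from RefSeq GRCm38.p6, the release of mm10, with 21631 protein-coding genes on these chromosomes, and exons were not separated from introns. Percentiles are mid-ranks of the highest maximum in a region among all peaks of its library. Tests were limma 3.58.1 (R 4.3.3) on normal scores with Benjamini-Hochberg adjustment, tested first on simulated data, and exact permutation over libraries. Intervals cover counting error only. The rule named the 10 genes with most regions, the 10 regions of highest percentile and 5 per class, 4 members of each of 20 lists and the Zic genes, the 10 largest limma changes each way, and 5 regions absent later. The members and lists were chosen with earlier results of these data known. Some results under this rule are not reported here.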

Additional observations from a re-analysis of the deposited data

Results flagged for a closer look

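Chromosome Y was left out of the regions described above, and its peaks stand outside every comparison. The DIV1 replicates 1, 2 and 3 held 286, 603 and 145 peaks there, above the limit that a count of 0 allows.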

How the results depend on the processing

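The set held 8779 regions and reached 5116 genes when only maximum-signal parts were merged. The gene-end, in-gene and between-gene shares were 44.7, 29.9 and 25.4% with a 5 kb window, 27.2, 42.5 and 30.4% with 0 kb, 39.2, 34.4 and 26.4% where peaks had to cover 50% of the region, and 40.6, 33.7 and 25.7% for peaks at or above the median maximum, with 32.8% at gene ends for maximum-signal parts. With 1 DIV1 library left out they were 29.5 to 30.3, 39.0 to 39.7 and 30.3 to 30.9%. Of the class differences by library, gene ends gave 2.20 points with a 5 kb window (adjusted exact p = 0.0409) and -1.40 over regions called in 2 or more libraries, the reverse sign. The in-gene difference was no longer past 0.05 at 3.14 (5 kb), 3.00 (maximum at or above the median), 4.397 (51-base libraries), 2.86 (without the 3 later libraries with fewest reads, chosen after seeing the data) and 3.78 to 4.71 over single libraries left out, where it missed without DIV1 replicates 1, 2 or 3 or DIV5 replicate 3. Between genes this held at -5.38, -4.04 and, without any DIV1 replicate, within -6.15 to -4.58. The limma count was 635 on total signal, 78 with depth, 2 with the read length, 732 in regions called in at least 10 of 12, 96 in regions of at most 2 kb, 26 with maximum-signal parts, 116 in 51-base libraries and 22 to 274 with 1 library left out, lowest without DIV1 replicates 3 (22), 1 (30) and 2 (47). The cause was not tested. Same-numbered libraries showed little shared deviation (18 pairs, r of -0.0854 to 0.137, median 0.0331, 2 above 0.1). Pairs with different numbers had r of -0.138 to 0.186 (36 pairs, median -0.0114, 1 above 0.1). The difference between the 2 kinds of pair was not tested. With the replicate number as a block, limma called 194 regions and the in-gene difference of 4.20 had an adjusted exact p of 0.0703. In 64 other recomputed values of these results the call held or the count stayed within 1.5 times. Reads per region limit the weak ones: a median region had 45 to 58 reads, one seen once 13.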
